A study of Mus musculus with 4 samples.

Results

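Integrins and the proteins of focal adhesions were examined as a set of 41 named genes, out of 21631 protein-coding genes of the GRCm38.p6 RefSeq table on chromosomes 1 to 19 and X. The set was given by name, and it was made up of 18 integrin subunit genes and 23 genes of the adhesion plaque and its links to actin. For each gene, peaks were taken whose summit lay in the annotated gene span or within 10 kb of either end, called nearby peaks here. This gave 164 peaks of 21285 in the first of 2 deposited lists and 170 of 21218 in the other.

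The series is a ChIP-seq study of TEAD1, a DNA-binding partner of the coactivators YAP and TAZ, in Neonatal Mice Cardiac Fibroblasts. It holds 4 libraries in 4 groups of 1: ChIP DNA and input DNA from cells with the overexpression control (OE-NC), and ChIP DNA and input DNA from cells overexpressing TEAD1 (OE-TEAD1). Input is sheared, crosslinked chromatin set aside before the antibody step. The labels do not say which list belongs to OE-NC and which to OE-TEAD1, so they are named list 1 and list 2, no effect of overexpression is given, and with 1 library per group nothing below was tested against a spread between replicates. The route of delivery of the construct, the antibody and the number of animals are not known here, and the lists hold no expression values against which the labelled cell type could be checked.

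Integrins are receptors made of an α and a β subunit that bind matrix proteins outside the cell and, through talin and kindlin, the actin cytoskeleton inside it. At focal adhesions the scaffold and kinase proteins paxillin, FAK and ILK gather around them, and vinculin, α-actinin, filamin, zyxin and VASP tie them to stress fibres. In fibroblasts these structures carry the traction of contracting cells, and integrins that contain αv can release TGF-β from its latent form. YAP and TEAD activity is known to respond to adhesion and tension.

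Adhesion genes carried nearby peaks more often than genes of the same size. In list 1, 32 of the 41 members (78%) had at least 1 nearby peak, against 33.6% of all other protein-coding genes. In list 2 there were 34 members (82.9%), against 33.7% of other genes. Long genes catch more summits, and members span 6.34 kb (Ilk) to 599 kb (Lpp). Each member was therefore set beside all other protein-coding genes whose span was within a factor of 1.2 of its own, 109 to 2247 genes per member. Averaged over the members, 49.9% of these genes of like span had a nearby peak in list 1 and 50.4% in list 2. In both lists at once there were 30 members (73.2%), against 44% of genes of like span and 27.9% of all other genes. These shares are descriptions of 1 calling each, without a test.

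The share was uneven within the set. Among the plaque and linker genes 21 of 23 (91.3%) had a nearby peak in each list, beside 48.5% and 49.4% of genes of like span. Among integrin subunits 11 of 18 (61.1%) had one in list 1 and 13 of 18 (72.2%) in list 2, beside 51.8% in each list. Integrin subunits thus lay closer to genes of their size than the plaque genes did.

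**Figure D1:**
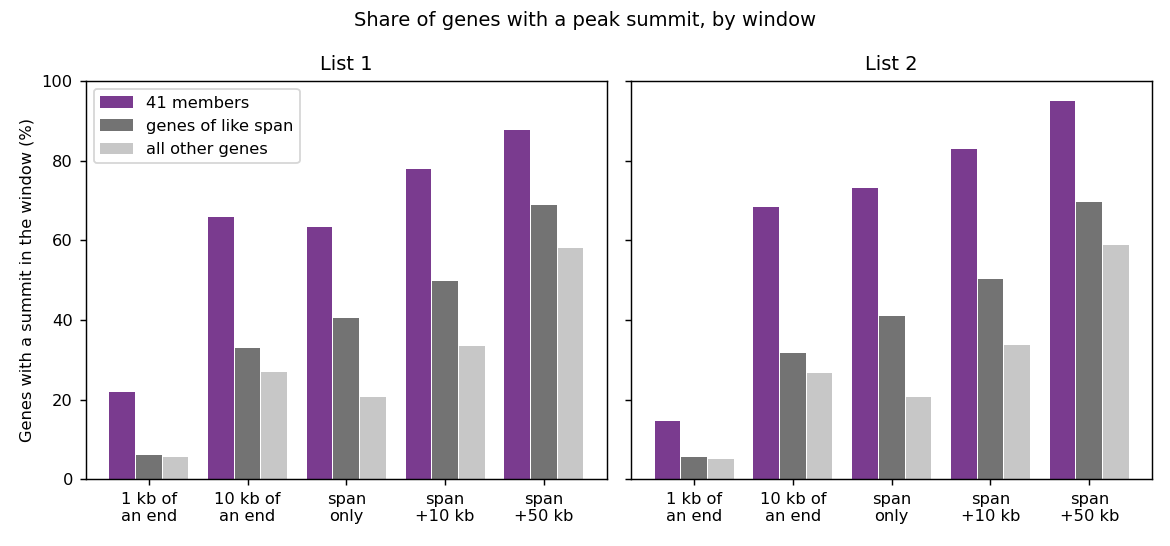
Percentage of genes with a peak summit (vertical axis) in 5 windows around the gene (horizontal axis), for the 41 members, for genes of like span (mean over members) and for all other protein-coding genes, in list 1 (left) and list 2 (right). Members stand above genes of like span in every window of each list, for example 78% against 49.9% in list 1 with the span and 10 kb on either side.

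Members also held more peaks each. The window of the span plus 10 kb on either side held 3.2 summits per 100 kb over all members in list 1, against 1.14 for genes of like span, and 3.32 against 1.11 in list 2. Plaque and linker genes reached 4.03 and 3.96 per 100 kb in list 1 and list 2, against 1.08 and 1.06 for genes of like span. Integrin subunits had 1.9 and 2.31, against 1.23 and 1.2. The median member had 2 summits in each list. The number of summits exceeded the median of genes of like span for 29 members in list 1 and 31 in list 2. It exceeded that of more than 90% of such genes for 16 members in list 1 and 17 in list 2. Lpp, Tns3, Tln2, Ptk2, Itgb6 and Itgb5, picked out because they had the most summits, held 81 of the 164 summits in list 1 and 81 of 170 in list 2. Without these 6 genes the density over the other members was 2.52 per 100 kb in list 1, against 1.22 for genes of like span, and 2.7 against 1.19 in list 2.

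**Figure D2:**
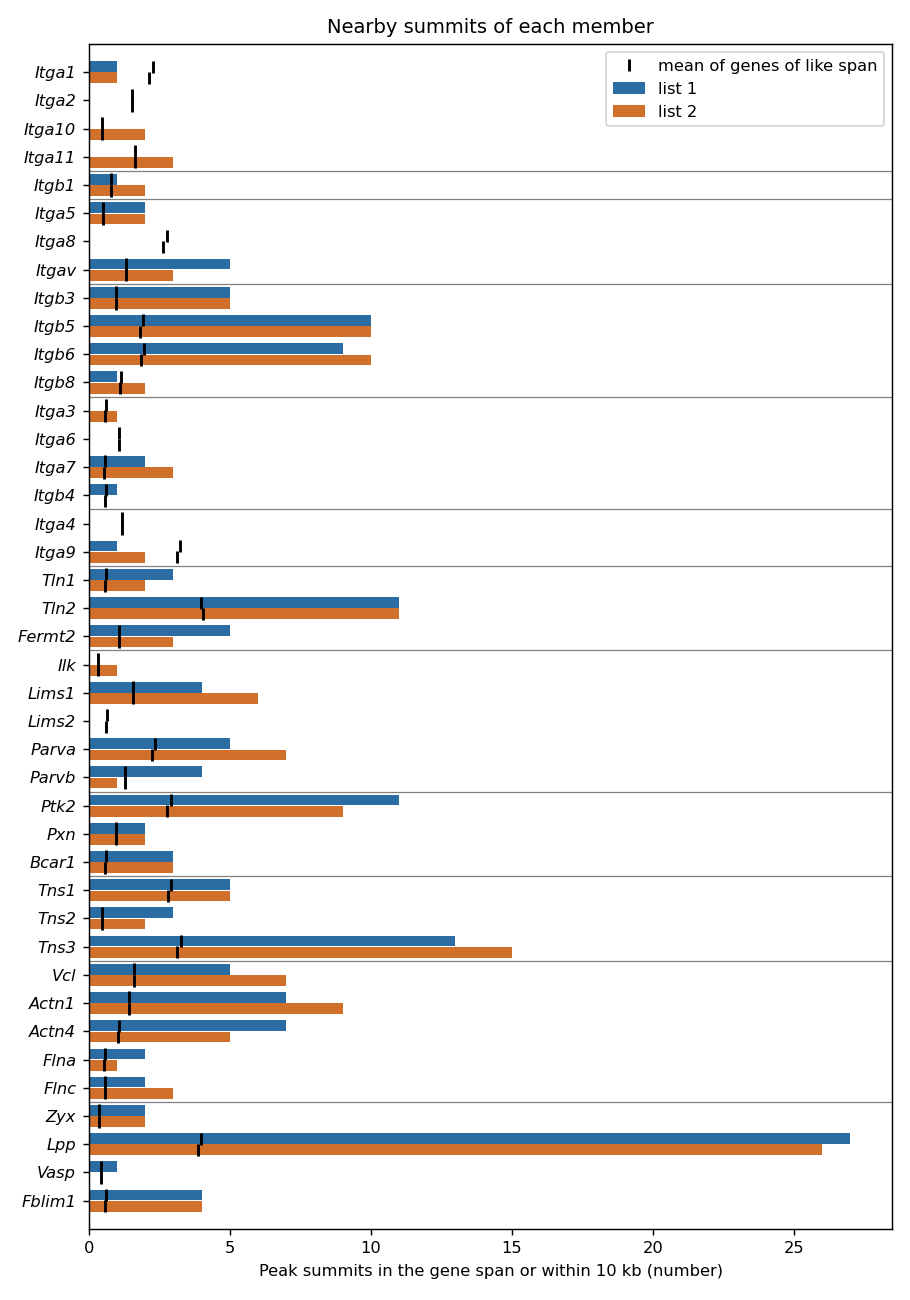
Number of peak summits in the span of each member or within 10 kb of it (horizontal axis), in list 1 and list 2, with black ticks for the mean number over genes of like span. Genes run from integrin subunits at the top to the zyxin group at the bottom, and grey lines part the groups. Lpp has 27 and 26 summits against a mean of 3.97 in list 1, and 5 members have no bar.

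The peaks of members were of ordinary strength as a whole, and the strongest of each gene stood higher. Fold over input is the authors' ratio of ChIP fragments at the summit to the local background from input, with 1 added to each. Its median over the members' peaks was 6.56 in list 1, against 6.24 over peaks near other protein-coding genes, and 7.3 against 6.77 in list 2. The strongest nearby peak of a member, by −log10 q, had a median fold of 12.6 in list 1 (from 4.41 to 38.2, 32 members). Over the 7260 other genes with a nearby peak this median was 7.71, and for genes of like span, taken member by member, it was 8.08. In list 2 it was 13.7 (from 4.11 to 64.2, 34 members), against 8.25 over other genes and 8.99 over genes of like span. Members also had more peaks each, and the part of that in these medians was not tested. With summits within 10 kb of an end of the gene only, the members' medians were 7.71 in list 1 and 8.13 in list 2. No median of other genes in that window is given, so these values have no comparison here. A peak of at least 10-fold lay near 20 members in list 1 and 23 in list 2, where 11.5% and 13.3% of other genes and 20.5% and 23.8% of genes of like span had one. In both lists there were 18 such members, against 9.74% of other genes, a share not matched for span.

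**Figure D3:**
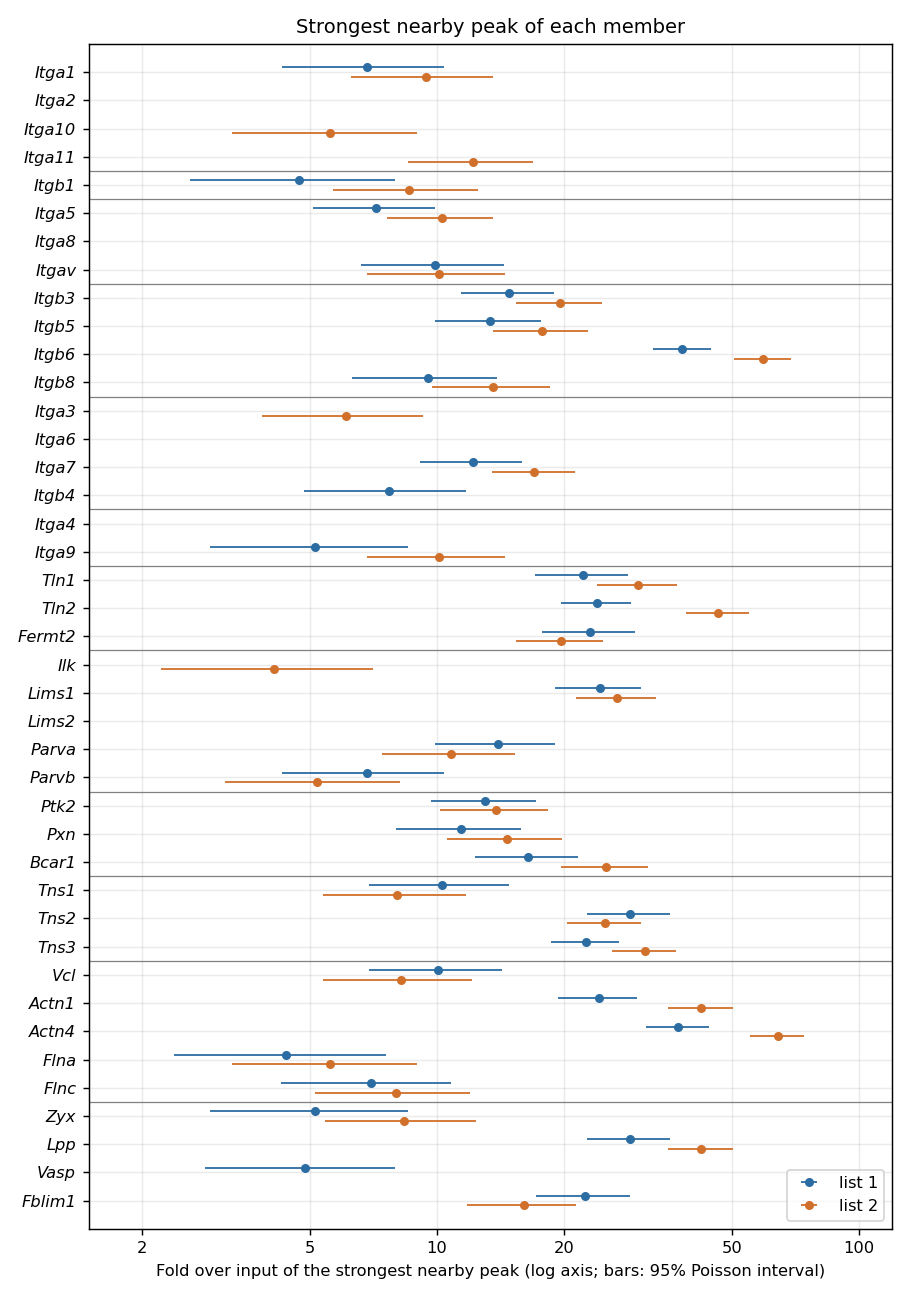
Fold over input of the strongest nearby peak of each member (horizontal log axis) in list 1 and list 2, with exact Poisson 95% intervals of the ChIP fragment count. Actn4 (37.3 and 64.2) and Itgb6 (38.2 and 59.3) are farthest to the right, and genes without a point had no nearby peak in that list.

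Itgb3, Itgb5, Itgb6 and Itgb8, whose products pair with αv, all had nearby peaks in both lists, and 3 of the 4 had several. Some of these β subunits are well known for releasing latent TGF-β. Itgb1, whose product pairs with most α subunits, was grouped apart and is described below. Of genes of like span 50.6% had a nearby peak in both lists. Itgb6, encoding β6, held the strongest peak of any integrin gene. Its main site, on chromosome 2 at 60639178 to 60640812 in list 1, lay inside the gene 41.5 kb from the nearer end. Its fold over input was 38.2 in list 1 (95% interval 32.5 to 44.6, 156 fragments) and 59.3 in list 2 (50.7 to 68.9, 169 fragments). These intervals, like all below, hold only the counting error of ChIP fragments. They did not overlap, and list 2 was the higher. The local background, which the intervals take as fixed, was 3.11 in list 1 and 1.87 in list 2.

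Around that site list 1 had 8 more peaks in Itgb6, and each was also called in list 2. A pair of sites 29.4 and 34.7 kb into the span had folds of 16.2 and 11.7 in list 1 and 23.7 and 12.5 in list 2. A second group lay 91 to 105.2 kb into the span, where folds were 6.12, 18.4, 7.81 and 9.18 in list 1. The same 4 sites had 12.9, 18, 9.9 and 8.07 in list 2, which had a further peak of 5.99 between them. The remaining sites, at 61.9 and 123 kb, were weak in each list, with folds of 3.62 and 6.18 in list 1 and 4.62 and 7.68 in list 2. Of genes of like span 96.9% had fewer summits in list 1 and 98.6% in list 2. Itgb6 is best known from epithelial cells, and whether it was expressed here was not measured.

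Itgb5, encoding β5, had 10 summits in each list, and 9 of those in list 1 were also called in list 2. Its 3 peaks between 59.5 and 63.2 kb into the span formed a cluster. Their folds were 10.5, 13.4 and 12 in list 1 and 14.2, 15.6 and 17.8 in list 2. A further site lay 1.73 kb beyond the upper end of the span, also within 10 kb of Umps, with folds of 12.9 (9.01 to 17.8) and 14.7 (10.6 to 19.8). The other peaks ranged from 2.92 to 6.17 in list 1 and from 3.61 to 10.5 in list 2. Every interval of list 1 at the 4 strong sites overlapped that of list 2.

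Itgb3, encoding β3, had 5 summits in each list. The strongest lay 3.75 kb inside the lower end of the span with a fold of 14.8 in list 1 (11.4 to 19) and 19.6 in list 2 (15.4 to 24.6). Another, 33.1 kb into the span, had 10.9 and 9.84. Itgb8, encoding β8, had a single site in common, 20.2 kb from the nearer end, with 9.55 (6.31 to 13.9) and 13.6 (9.73 to 18.5). A weak peak of list 2 alone (5.58-fold) lay 0.677 kb before the annotated start of Itgb8.

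**Figure D4:**
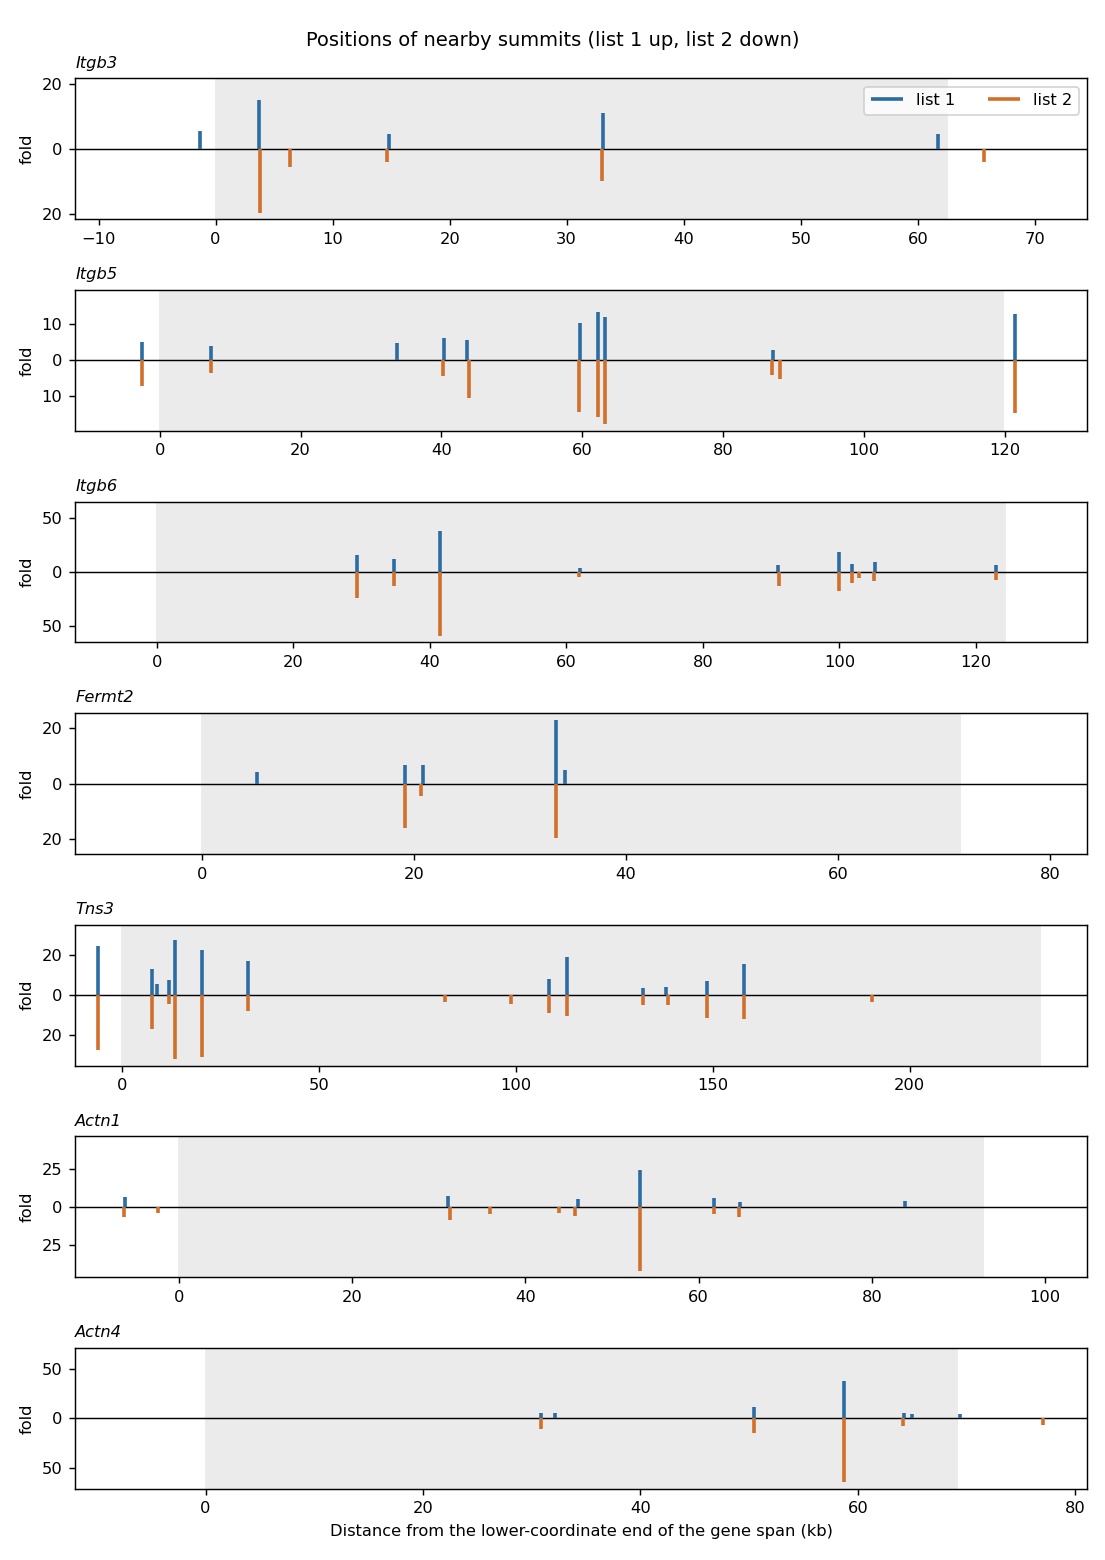
Positions of nearby summits in 7 members as distance from the lower-coordinate end of the gene span (kb, shaded), with stem height giving fold over input, list 1 upwards and list 2 downwards. Most stems have a partner in the other list at the same position, as at 41.5 kb in Itgb6, 53.29 kb in Actn1 and 58.7 kb in Actn4.

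By fold, the strongest peaks of the α subunits and the common β1 subunit were lower than those of Itgb6, Itgb5 and Itgb3. Itga7 came close to Itgb5, with 12.2 (9.12 to 15.9) against 13.4 (9.89 to 17.7) in list 1. In list 2 it had 17 (13.5 to 21.3) against 17.8 (13.6 to 22.8). By −log10 q Itga7 was the higher of these 2 genes, with 38.85 against 38.66 in list 1 and 68.67 against 57.37 in list 2. No α subunit had more than 5 summits in either list. Itgb8, with 1 summit in list 1 and 2 in list 2, did not stand above all of them. Itgb1, whose product pairs with most α subunits, had 1 peak in list 1, 18.9 kb into the span, at 4.72-fold (2.61 to 7.97) on 12 fragments. In list 2 that site was at 8.37-fold (5.44 to 12.4), and a second site 13.3 kb into the span at 8.58-fold was called there alone. Itgav, encoding αv, had 5 summits in list 1 and 3 in list 2. Its strongest was 9.91-fold (6.6 to 14.4) in list 1 at 36.5 kb into the span. The same site was 8-fold in list 2 (5.58 to 11.1), and a neighbour 38 kb into the span was 10.1-fold there (6.84 to 14.5).

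Itga5, encoding the fibronectin receptor subunit α5, had the same 2 sites in each list. The site 5.42 kb before its start was 7.19-fold in list 1 (5.09 to 9.88) and 10.3-fold in list 2 (7.64 to 13.6), and the site 7.43 kb after it was 6.35-fold and 9.86-fold. Itga8, encoding another subunit that binds the RGD motif of fibronectin, had no nearby peak in either list, although 64.7% of genes of like span had one in list 1.

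The collagen-binding and laminin-binding subunits were mixed. Itga1, a collagen receptor subunit, had 1 site, 11.2 kb after its start, with 6.83 and 9.42, and within 10 kb of Pelo. Itga11, the collagen receptor subunit typical of fibroblasts, had no nearby peak in list 1 and 3 in list 2, at 12.2-fold (8.56 to 16.9, 34 fragments), 6.28-fold and 4.88-fold. Itga10 had 2 weak peaks in list 2 alone (5.58 and 5.25), and Itga2 had none. Itga7, the laminin receptor subunit of muscle, had a site 1.87 kb outside the lower end of its span with 12.2 (9.12 to 15.9) and 17 (13.5 to 21.3), also within 10 kb of Bloc1s1. A second site there had 7.49 and 7.6, and list 2 had 1 more peak at 5.5. Itgb4 had its sole peak in list 1 (7.71), and Itga3 its sole peak in list 2 (6.11). Itga6 had none. Itga9 had 5.14 and 7.68 at a site beyond its span and 10.1 at a site inside it in list 2 alone, and Itga4 had none.

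The proteins that switch integrins on had strong peaks at all 3 genes. A nearby peak in both lists was found for 47.4% of genes of like span. Tln1 and Tln2 encode the talins, and Fermt2 encodes kindlin-2, which binds the β tail beside talin. Tln2 had 11 summits in each list. The site 21.7 kb from an end of the span was 24-fold in list 1 (19.7 to 28.9, 110 fragments) and 46.4-fold in list 2 (38.9 to 55, 132 fragments). A site 8.44 kb outside the lower end was 29.7-fold (23.7 to 36.9) and 41.5-fold (34.4 to 49.7), and one 246.6 kb into the span 13.1-fold (9.65 to 17.4) and 24.1-fold (18.8 to 30.4). The intervals did not overlap at the sites with 24 and 46.4 and with 13.1 and 24.1, and list 2 was higher at each. The background at these sites was 3.63 and 2.59 in list 1, and 1.87 at each in list 2. Of the other Tln2 peaks, those of list 1 ranged from 4.18 to 9.18 and those of list 2 from 5.58 to 10.1.

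Tln1 is a compact gene of 31.1 kb with 1 strong site, 4.08 kb after its start. It was 22.2-fold in list 1 (17.1 to 28.4) and 30-fold in list 2 (24 to 37), and it also lay within 10 kb of Creb3 and Gba2. The site before its start, 6.83 and 6.51, lay inside the span of Creb3, and a list 1 peak of 3.46 lay near Tpm2. Fermt2 had its main site 33.4 kb into the span, at 23-fold (17.8 to 29.4) in list 1 and 19.7-fold (15.4 to 24.8) in list 2. A second Fermt2 site, 19.2 kb into the span, had the highest ratio of list 2 to list 1 among the members' one-to-one pairs. It was 6.62-fold in list 1 (4.06 to 10.3, 18 fragments) and 16.1-fold in list 2 (11.8 to 21.4, 45 fragments). The background was 1.87 in each list.

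The ILK, PINCH and parvin proteins form a complex on the β tail. Of their 5 genes 3 had peaks in both lists (60%), against 42.7% of genes of like span. Lims1, encoding PINCH-1, stood out. Its main site lay 0.996 kb before the annotated start and was 24.3-fold in list 1 (19.1 to 30.5) and 26.8-fold in list 2 (21.4 to 33). A second site 2.47 kb before the start was 16.3-fold and 15.9-fold. The other Lims1 peaks had 6.72 and 3.46 in list 1, and 8.02, 6.46, 4.2 and 3.87 in list 2. Parva, encoding α-parvin, had 5 summits in list 1 and 7 in list 2, led by 14 (9.93 to 19.1) in list 1 at a site that had 8.99 (6.2 to 12.6) in list 2. The strongest Parva peak of list 2, 10.8-fold (7.41 to 15.3), was called there alone. Parvb had 4 summits in list 1 and 1 in list 2, none above 6.83. Ilk itself had a single weak peak, in list 2 (4.11-fold, 2.22 to 7.08, 11 fragments), and Lims2 had none.

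The 3 kinase and scaffold genes all had peaks in both lists, against 45.1% of genes of like span. Ptk2, encoding FAK, had 11 summits in list 1 and 9 in list 2. The strongest, 38.3 kb into the span, was 13-fold (9.67 to 17.2) and 13.8-fold (10.2 to 18.3). Between it and 44.2 kb into the span there were 3 more sites in each list. A site 113.8 kb into the span had 11.8 and 9.27. A Ptk2 site 0.144 kb outside an end of the span had 7.76 and 7.28. Pxn, encoding paxillin, had 1 clear site, 1.24 kb inside the lower end of its span, at 11.4-fold (7.99 to 15.8) and 14.7-fold (10.6 to 19.8), also within 10 kb of Sirt4. Its other peak, 4.23 and 4.54, lay in the span of Sirt4. Bcar1, encoding the scaffold p130Cas, had its strongest site 4.02 kb before the start, with 16.5 (12.3 to 21.6) and 25.1 (19.7 to 31.6). Its other peaks had 7.52 and 4.77 in list 1 and 6.83 and 5.99 in list 2.

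Tensins bind integrin tails and actin in the mature, fibrillar adhesions of fibroblasts, and their 3 genes held 21 summits in list 1 and 22 in list 2. Tns3 alone had 13 and 15. Its strongest sites lay at the end of the span far from the start. The site 20.2 kb from the lower end was 22.5-fold in list 1 (18.6 to 27, 115 fragments) and 31.1-fold in list 2 (26 to 36.8, 131 fragments). The site at 13.3 kb had 27.6 and 32, and the one 6.22 kb outside the span had 24.5 and 27.3. Further Tns3 sites of at least 10-fold in both lists had 12.9 and 16.9, 19.3 and 10.2, and 15.8 and 11.8 in list 1 and list 2. A site 31.8 kb into the span was 17.2-fold in list 1 (13 to 22.5) and 8.05-fold in list 2 (5.88 to 10.8). There, and at the site with 19.3 (14.6 to 25.2) and 10.2 (7.08 to 14.1), list 1 was the higher and the intervals did not overlap. The site at 31.8 kb had 52 fragments on a background of 2.07 in list 1 and 43 on 4.47 in list 2. The other had 53 on 1.79 in list 1 and 33 on 2.35 in list 2. The other Tns3 peaks ranged from 3.55 to 7.91 in list 1 and from 3.29 to 11.5 in list 2.

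Tns2 spans 17.9 kb and had 1 strong site, 1.41 kb after an annotated start, with 28.6 (22.7 to 35.7) in list 1 and 25 (20.3 to 30.5) in list 2. Its weaker peaks had 6.61 and 3.89 in list 1 and 6.91 in list 2, and all lay within 10 kb of Eif4b. Tns1, with 5 summits in each list over 214 kb, had none above 10.3-fold.

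Genes that tie adhesions to actin filaments, 5 in all, had nearby peaks without exception in each list, but at very different strengths. Of genes of like span 48.8% had one in list 1 and 48.7% in list 2. The nonmuscle α-actinins crosslink the filaments of stress fibres, and their genes had 1 dominant site each. In Actn4 it lay on chromosome 7 at 28951625 to 28953053 in list 1, 10.3 kb after the start. It was 37.3-fold in list 1 (31.3 to 44.2, 133 fragments) and 64.2-fold in list 2 (55.3 to 74.2, 183 fragments), the highest value of any member. The next Actn4 site, 18.6 kb after the start, had 11.8 and 15. The remaining peaks ranged from 4.04 to 5.88 in list 1 and from 6.6 to 10.1 in list 2.

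In Actn1 the dominant site, on chromosome 12 at 80220368 to 80221231 in list 1, lay 39.5 kb after the start. It was 24.2-fold in list 1 (19.4 to 29.8, 86 fragments) and 42.2-fold in list 2 (35.3 to 50.2, 127 fragments). All other Actn1 peaks were at 7.16-fold or less in list 1 and at 8.37-fold or less in list 2. At both α-actinin genes the intervals of the dominant site did not overlap between the lists. The background was 2.59 at each in list 1, and 1.87 in Actn4 and 2.03 in Actn1 in list 2.

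Vcl, encoding vinculin, had 5 summits in list 1 and 7 in list 2, and 5 of them were common sites. The strongest in list 1, 9.18 kb after the start, was 10.1-fold (6.91 to 14.3) and 7.48-fold in list 2 (4.86 to 11.1). In list 2 a site 3.88 kb after the start led with 8.23 (5.39 to 12.1) against 5.21 (3.06 to 8.37) in list 1. Flna, encoding filamin A and located on the X chromosome, had only weak peaks at sites that differed between the lists. Those of list 1 were at 4.41 and 3.23 and that of list 2 at 5.58. Flnc, the filamin of muscle, had common sites 4.8 and 2.89 kb before its start, with 6.98 and 6.51 in list 1 and 8.03 and 5.11 in list 2. These also lay within 10 kb of Ccdc136.

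In the zyxin and VASP group, which repairs and extends stress fibres at adhesions, Lpp held the most peaks of any member. Over its 599 kb there were 27 summits in list 1 and 26 in list 2, and 23 of those in list 1 were called in list 2. None of the 109 genes of like span had as many in list 1. A site 340.2 kb into the span was 28.6-fold in list 1 (22.7 to 35.7, 77 fragments) and 42.2-fold in list 2 (35.3 to 50.2, 127 fragments). A site at 40.9 kb was 11.4-fold (8.44 to 15.2) and 25.4-fold (20.3 to 31.3), and one at 105 kb 9.76-fold (6.64 to 13.9) and 19-fold (14.6 to 24.3), both higher in list 2 with intervals apart. Background at the sites at 40.9 and 105 kb was 3.11 and 2.07 in list 1 and 2.39 and 2.26 in list 2. The remaining peaks ranged from 3.58 to 12.7 in list 1 and from 3.37 to 12.4 in list 2. Zyx had 1 common site, 5.14-fold (2.91 to 8.53) and 8.37-fold (5.44 to 12.4), in the stretch where its span overlaps that of Epha1. Vasp had 1 weak peak in list 1 (4.88-fold), 9.99 kb outside its span, and none in list 2.

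Fblim1, encoding migfilin, which links filamin to the adhesion, was the only member whose promoter was covered by a peak in both lists, among the 32 members with a promoter sequence in the RefSeq table (GRCm38.p6). That peak was 12.9-fold in list 1 (9.01 to 17.8) and 12.6-fold in list 2 (8.86 to 17.3), with summits 66 and 77 bp before the annotated start. The same peak lay within 10 kb of Tmem82. Other Fblim1 sites, outside the far end of the span, had 22.4, 10.3 and 7.71 in list 1 and 14.5, 16.1 and 7.33 in list 2. Promoter sequence was searched over the 250 bases before each start for the TEAD core GGAATG and the AP-1 site TGANTCA, on both strands. The promoters below are shown for the peak over them (Fblim1 in both lists, Actn4 in list 1) or, for Vcl and Itgb1, as examples of main adhesion genes with a TEAD core and no peak over the promoter. Flna, Flnc, Itga10 and Lpp also had such a core without a peak over it and are not shown. Windows of Lims1, Tns2 and Itgb8, with a summit within 1 kb of the start in at least 1 list, held neither motif and are not shown. Capitals mark matches to either motif, and each sequence runs 5′ to 3′ on the gene's strand and ends at the base before the start.
Fblim1 (chr4:141606053-141606302, minus strand): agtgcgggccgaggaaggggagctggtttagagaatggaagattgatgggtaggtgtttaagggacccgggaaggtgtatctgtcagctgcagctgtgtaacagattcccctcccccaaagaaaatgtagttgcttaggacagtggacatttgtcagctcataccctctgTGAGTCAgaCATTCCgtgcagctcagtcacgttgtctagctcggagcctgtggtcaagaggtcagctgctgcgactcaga
Actn4 (chr7:28962333-28962582, minus strand): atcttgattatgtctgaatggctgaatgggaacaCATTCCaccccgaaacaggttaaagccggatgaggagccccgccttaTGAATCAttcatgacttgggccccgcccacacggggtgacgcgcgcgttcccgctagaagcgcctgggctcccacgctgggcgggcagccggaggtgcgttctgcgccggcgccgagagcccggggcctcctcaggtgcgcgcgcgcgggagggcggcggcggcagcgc
Vcl (chr14:20929148-20929397, plus strand): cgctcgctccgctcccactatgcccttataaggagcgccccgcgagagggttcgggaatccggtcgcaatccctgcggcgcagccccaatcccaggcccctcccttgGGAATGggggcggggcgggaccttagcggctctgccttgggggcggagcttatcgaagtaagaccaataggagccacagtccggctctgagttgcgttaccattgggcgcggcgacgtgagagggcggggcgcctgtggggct
Itgb1 (chr8:128685404-128685653, plus strand): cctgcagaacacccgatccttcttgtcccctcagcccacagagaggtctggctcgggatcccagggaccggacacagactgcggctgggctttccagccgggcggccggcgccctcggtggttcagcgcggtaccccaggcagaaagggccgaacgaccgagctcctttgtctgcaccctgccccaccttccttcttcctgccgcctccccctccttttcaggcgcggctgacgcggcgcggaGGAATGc

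In Fblim1 the AP-1 match and the TEAD core stood 2 bases apart. The TEAD core took up 141606118 to 141606123, and the list 1 summit, at 141606118, fell on its last base on the gene's strand. The AP-1 match took up 141606126 to 141606132, and the list 2 summit, at 141606129, fell inside it. In Actn4 the promoter peak of list 1 was weak, 4.04-fold (2.13 to 7.12, 10 fragments), with its summit 275 bp before the start. Counted from the start, the Vcl core lay at position -143 and that of Itgb1 at -7.

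Matches in promoters were common in general. A TEAD core was found in 8 of 41 promoter windows of members (19.5%), and in 11.6% of the 21012 windows of all protein-coding genes. An AP-1 match was found in 3 of 41 (7.32%) and in 6.18% of all windows. A match describes the letters of the window and not a bound site. Peaks over promoters were rare, with 2 member windows in list 1 and 1 in list 2, where 1.65% and 1.49% of the windows of other genes were covered. A summit within 1 kb of an annotated start was found for 4 of the 41 start sites of members in each list, against 4.24% and 3.84% of those of other genes. They belonged to Actn4, Fblim1, Lims1 and Tns2 in list 1 and to Fblim1, Itgb8 and Lims1 in list 2.

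Most members' peaks lay inside the genes, and the gene spans also made up most of the length of the windows. Of the 164 gene and peak pairs of list 1, 131 (79.9%) had the summit in the span, and of the 170 of list 2, 134 (78.8%). The same share was not computed for other genes, so whether it is particular to members was not tested. No peak was counted for more than 1 member. Within 10 kb of another protein-coding gene lay 23 summits in list 1 and 21 in list 2, and these cannot be given to the member alone. The strongest peak was over 10 kb from either end of the span in 16 of 32 members in list 1 and 18 of 34 in list 2. For members with a promoter sequence, the strongest peak lay a median of 11.7 kb from the nearest annotated start in list 1 and 11.4 kb in list 2. Whether a summit lay in an exon or an intron was not analysed here, since the table gives gene spans only.

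Members' sites were largely the same in both lists. Of their peaks 132 of 164 in list 1 (80.5%, Wilson 95% interval 73.8 to 85.8) overlapped a list 2 peak, and 132 of 170 in list 2 (77.6%, 70.8 to 83.3) a list 1 peak. For peaks near other protein-coding genes the shares were 69.4% and 71%. The Wilson intervals treat peaks as independent. Yet 81 of the 164 and 81 of the 170 lay near Lpp, Tns3, Tln2, Ptk2, Itgb6 and Itgb5. Among the 30 members with a peak in both lists, the strongest peak was the same site in 20. Flna was the only one of these 30 without a shared site.

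Over 129 one-to-one pairs of sites the median log2 ratio of fold, list 2 over list 1, was 0.23 (SD 0.50 across sites), beside 0.15 over the 14886 other pairs of the lists. Peaks were paired where each had its largest overlap with the other, whatever the distance between summits. The Itgb6 peak of 7.81 in list 1 was thus paired with 5.99, though the peak of 9.9 had the nearer summit. In Lpp 9.07 was paired with 12.4, though 6.69 had the nearer summit. Both pairs ran opposite in direction to the nearer summits. List 2 was higher at 87 sites and list 1 at 42. The intervals did not overlap at 10 sites (7.75%), against 8.8% of other pairs. Of these, 8 were higher in list 2, in Itgb6, Actn4, Actn1, Tln2, Lpp and Fermt2, and the 2 higher in list 1 were both in Tns3. The direction of a difference in fold was thus not the same at every site, and which condition it belongs to is not known here. The intervals take each list's background as fixed, and the parts of fragments and background in a difference were not separated.

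**Figure D5:**
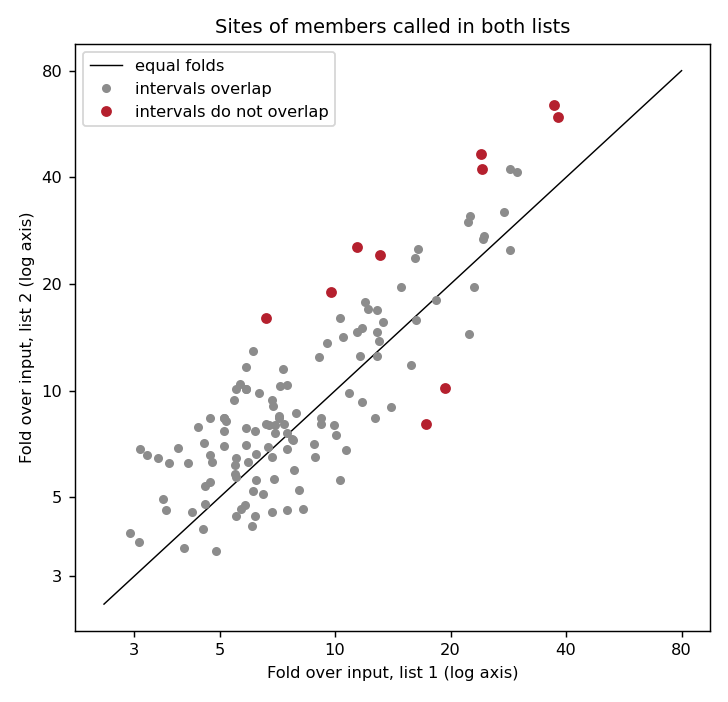
Fold over input in list 2 against list 1 (both log axes) for the 129 one-to-one pairs of sites near members. Red points are the 10 sites whose 95% Poisson intervals do not overlap, 8 above the line of equal folds and 2 below it.

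Other genes of the same machinery, listed for comparison, had nearby peaks as well. Of 40 further adhesion genes 30 had a nearby peak in list 1 (75%, like span 48%) and 28 in list 2 (70%, like span 48.6%). Src, the kinase that acts with FAK, had 48.5 (40.6 to 57.5) and 62.8 (54.8 to 71.7). Dlc1, encoding a GTPase-activating protein of focal adhesions, had 36.4 and 30.4 with 19 and 20 summits. No nearby peak in either list was found for 10 of the 40.

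Integrin subunits of leukocytes and platelets stood near the level of genes of like span. Of 9 genes 4 had a nearby peak in list 1 (44.4%, like span 37.3%) and 3 in list 2 (33.3%, like span 36.6%). Itgb2, the common β subunit of leukocyte integrins, had 29.6 (24 to 36.2) and 51.2 (43.6 to 59.8), and Itgb7 had 9.43 and 6.36.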

How the data were processed

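Per the submitters' processing notes, the tools were Trimmomatic 0.33 (trimming), Bowtie 1.1.2 (alignment) and MACS2 (peak calling). MACS2 settings and any pooling are not known here. The 2 deposited lists give each peak's summit, its fold (a ratio over input), its −log10 p and −log10 q, and a score that repeats the −log10 q. These deposited values were used as they stand.

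The notes name the build mm39. Coordinates were read as GRCm38, because 762 list 1 and 705 list 2 summits lay within 1 kb of a GRCm38.p6 start, against at most 459 and 432 after 10 shifts of 20 to 200 kb. ChIP fragments at the summit and local background were solved from the authors' fold and −log10 p. They came out whole, within 0.02, for all peaks (median 19 fragments in list 1 and 22 in list 2, lowest 8, lowest background 1.72 and 1.87). The solving step was tested on simulated data. Intervals of folds are exact Poisson 95% intervals of those fragments at fixed background. An overlap of 1 bp or more made peaks shared. Each gene counted a summit once, and a summit could count for several genes.

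No statistical test of a difference was run. Members, gene lists and the rule for naming genes were chosen with earlier results of these data known. All peaks are given for the 10 members of highest −log10 q (in Tln2, Tns3, Lpp, Actn1 and Actn4 the weaker ones by range), and the strongest for 14 main genes. Members with a peak in 1 list or none are also named. Some genes of the comparison lists and neighbouring genes are not reported here. Analyses used Python 3.11.15, numpy 2.4.6, scipy 1.17.1 and pandas 2.3.3.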

Additional observations from a re-analysis of the deposited data

How the results depend on the processing

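The count of members with a nearby peak stayed within 1.5 times with the span alone, with ends only within 10 kb, with 50 kb flanks and with summits given to the nearest gene only, as did the share of genes of like span under other matchings. The median strongest fold did so with the strongest peak taken by fold and with the nearest gene only, but with ends only within 10 kb it was 7.71 in list 1 and 8.13 in list 2. With ends only within 10 kb, the share of genes of like span was 33% in list 1 and 31.8% in list 2. With summits within 1 kb of an end, 9 and 6 members had one (5 in both lists), against 6.03% and 5.54% of genes of like span. With the 5000 strongest peaks per list there were 19 and 20 (17 in both), against 20.6% in each list. At a fold of at least 10 there were 20 members in list 1, against 20.5% of genes of like span, and 23 in list 2, against 23.8%. In both lists there were 18, against 9.74% of all other genes, not matched for span. Shared peaks fell to 71.3% and 68.8% with a reciprocal overlap of 50%, and to 67.7% and 65.3% with summits within 100 bp. Leaving out Lpp, or the 6 members with the most summits, was chosen after seeing the data and kept the density within 1.5 times. The weakest member peaks rest on 9 fragments in list 1 and 10 in list 2, so a gene without a peak had none detectable at this depth. No paired analysis was possible because each group held 1 library and neither list is tied to a group.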

Other observations

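Genes of integrin ligands, most of them matrix proteins, also carried nearby peaks in most cases. Of 12 genes 11 had one in list 1 (91.7%, like span 44.4%) and 10 in list 2 (83.3%, like span 44.6%). Fbn1, encoding the microfibril protein fibrillin-1, had 9 and 10 summits, the strongest at 37.4-fold (30.9 to 44.9) in list 1 and 49.5-fold (41.9 to 58.1) in list 2. Vcam1, a ligand of α4 integrins on cell surfaces, had 14.7-fold (11.9 to 18) and 33.1-fold (27.2 to 39.9). Thbs1, encoding thrombospondin-1, had 16.5-fold and 26.9-fold. Fn1, encoding fibronectin, had 1 weak peak in list 1 (4.41-fold) and none in list 2, and Vtn, encoding vitronectin, had none in either list (both were picked out after their values were seen).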
